A study of Mus musculus with 6 samples.

Results

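The genes described here are the aminoacyl-tRNA synthetases of mouse long-term haematopoietic stem cells (LT-HSCs), together with the scaffold proteins that hold some of them in a complex. They were chosen by name and no value entered the rule, though earlier results of these data were known. They are 19 genes for cytosolic enzymes or their subunits, 16 for mitochondrial enzymes and 3 for scaffold proteins. In all they make 38 of the 18193 genes that the array names. Each had at least 1 probe set annotated to it alone, 24 had several, and the one with the highest mean of the 6 arrays stood for the gene; no filter on level was applied, and 34 of the 38 did not pass the test described below. LT-HSCs, the rare marrow cells that sustain blood formation, were sorted by the surface phenotype Lin-Sca1+CD150+CD48-; the mice were 8 weeks old and of mixed background. The dKO group carried floxed alleles of c-myc (gene Myc) and of N-myc (gene Mycn) with the MxCre recombinase, which interferon signalling switches on in many cell types besides blood cells. The control group carried the same floxed genes without MxCre; the label of control replicate 2 reads M-Myc in place of N-myc. All mice, controls included, were given 2 daily doses of pI-pC, a synthetic inducer of interferon, and marrow was taken 3 days after the last dose. Each group had 3 arrays, each from its own pool of 3 dKO or 2 control mice. All values are log2 RMA expression values, in which arrays are scaled to each other, and in bulk samples fewer cells of a type and less RNA per cell cannot be told apart.

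Aminoacyl-tRNA synthetases join each amino acid to its tRNA, which gives the ribosome the charged tRNAs from which it builds proteins. Most amino acids have a nuclear-encoded enzyme for the cytosol and another, marked by a 2 in the gene symbol, that is imported into mitochondria; Gars and Kars serve both compartments, and mitochondria charge the glutamine tRNA by an indirect route. Several cytosolic enzymes sit in the multisynthetase complex with the scaffold proteins Aimp1, Aimp2 and Eef1e1. Myc proteins are transcription factors that bind E-boxes and promote the making of proteins, and ATF4 raises many cytosolic synthetase genes when amino acids run short.

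The targeted genes were lower in the dKO arrays. Myc fell by 2.93 ± 0.20 (SE, log2, limma adjusted p = 0.00137), and of 3 Mycn probe sets 1425922_a_at and 1417155_at fell while 1425923_at, with means of 4.40 and 4.32, did not pass. Array medians ran from 5.90 to 5.97, Pearson correlations across probe sets from 0.974 to 0.981 within groups and from 0.956 to 0.969 between them, and 3 negative control probe sets from 2.13 to 3.92. The Gapdh array controls, which show how intact the RNA was, read higher at the 3′ than at the 5′ end by 2.12 to 2.36 in the control arrays and by 2.39 to 2.47 in the dKO arrays. This gap moved with the groups, while that of the actin controls overlapped (0.10 to 0.23 in control, 0.20 to 0.21 in dKO arrays), and the part of the Gapdh gap in the differences below was not tested. Of the stem cell markers, Kit, Hlf and Tek fell, Slamf1, Procr and Mecom did not pass, and the other 2 of the list of 8 are not analysed here. Among marker lists of other blood cell types, 3 of 6 megakaryocyte genes rose (Ppbp, Pf4 and Itga2b) and 1 fell (Vwf). Pf4, Itga2b and Vwf were above the array medians in the control arrays as well, with means of 11.04, 8.37 and 9.31. Further, 1 of 6 macrophage genes rose (C1qb) and 1 of 4 measured erythroid genes fell (Klf1). By limma, 0 of 8 granulocyte, 0 of 5 measured T and NK cell and 0 of 5 measured B cell genes passed (at an unadjusted p of 0.05, 2 granulocyte genes were lower and 0 of the others differed). The summed level of the megakaryocyte list (log2) ran from 11.62 to 11.83 in the control arrays and from 12.78 to 13.46 in the dKO arrays. That of the macrophage list ran from 7.72 to 8.06 and from 8.23 to 8.31. The stem cell list summed to between 12.97 and 13.00 in the control arrays and between 12.13 and 12.55 in the dKO arrays, and the erythroid list to between 8.18 and 8.75 and between 7.25 and 7.92. The part of cell composition in the results was not tested.

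The question the design poses for these genes is whether stem cells that lost Myc and Mycn carried other levels of the charging enzymes, and whether the cytosolic and mitochondrial sets differed alike. Of the 19 cytosolic genes, 1 rose (Aars), 1 fell (Qars) and 17 did not pass an adjusted p of 0.05. Of the 16 mitochondrial genes, 0 rose, 2 fell (Mars2 and Pars2) and 14 did not pass. Beside these counts, 4.49% of all genes were higher and 3.56% lower by the same test (limma, Benjamini-Hochberg adjustment over 45037 probe sets, 1 probe set per gene counted), and 8.05% in either direction. The cytosolic shares, 5.26% each way, were near that background; the mitochondrial share of 12.5% lower was above it but rests on 2 genes. At an unadjusted p of 0.05, 4 cytosolic genes were higher and 2 lower, and 0 mitochondrial genes were higher and 5 lower. Over all 18193 genes, 2232 were higher and 1964 lower at that limma p. The unadjusted counts of the other lists are to be read beside these numbers too. The median log2 difference was 0.08 over the cytosolic genes and -0.25 over the mitochondrial genes, against 0.01 over all genes. Differences were above 0 for 12 and below 0 for 7 cytosolic genes, and above 0 for 2 and below 0 for 14 mitochondrial genes; 49.3% of all genes were below 0. These medians and counts describe the sets and carry no test.

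**Figure D1:**
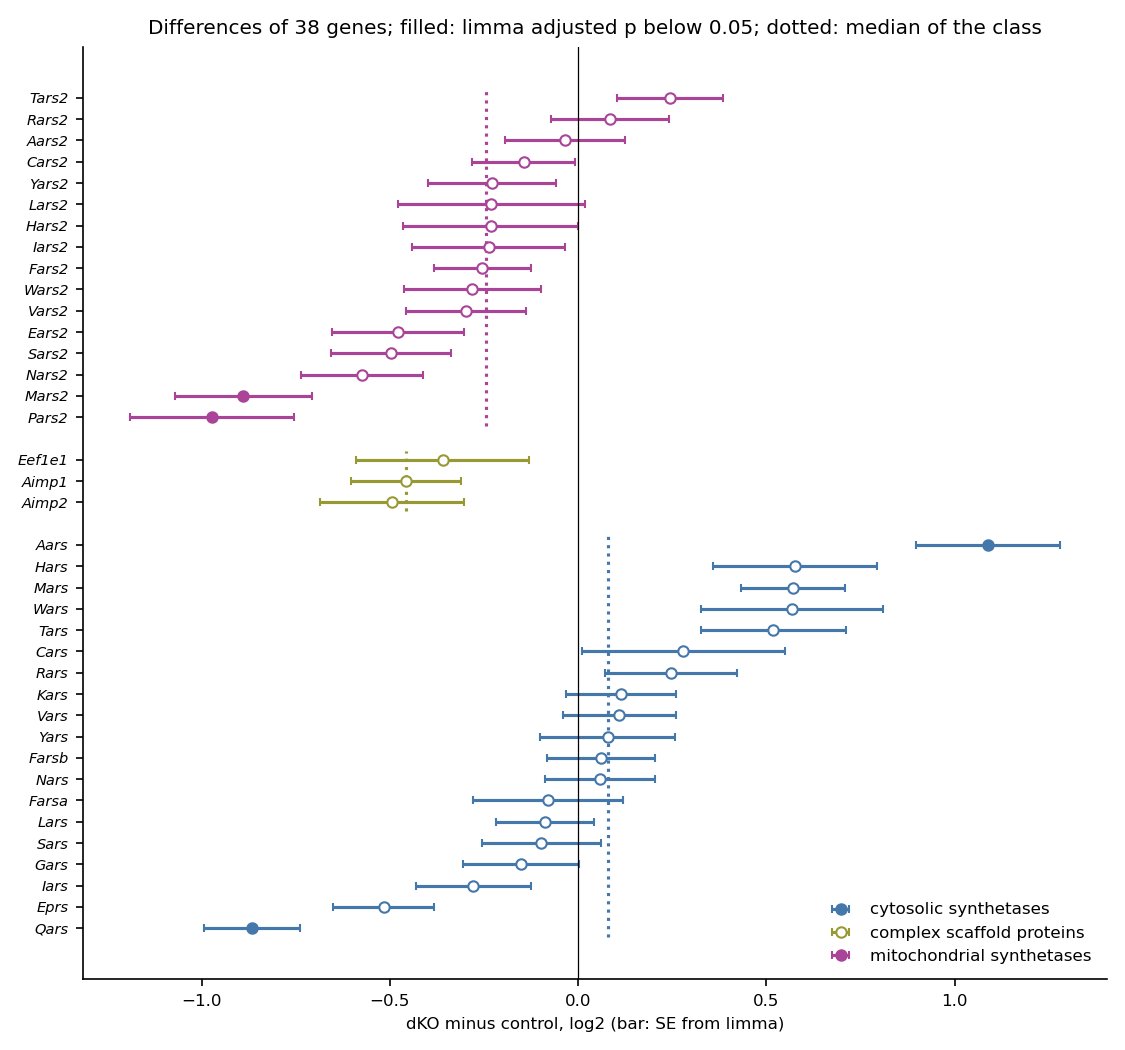
Difference between dKO and control (x axis, log2, bar: SE from limma) for each of the 38 genes, grouped by role, with filled points for genes past an adjusted p of 0.05 and a dotted line at the median of each class. The cytosolic genes lie on both sides of 0 around a median of 0.08, while 14 of 16 mitochondrial genes lie below 0 with a median of -0.25.

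Taken array by array, the mitochondrial set was lower in every dKO array. Averaged over its 16 genes and set against each gene's control mean, it stood at -0.44, -0.22 and -0.28 in dKO replicates 1, 2 and 3, and between -0.03 and 0.05 in the control arrays. The 3 scaffold genes were lower in every dKO array too, at -0.43, -0.36 and -0.52, and between -0.07 and 0.07 in the control arrays. The 19 cytosolic genes averaged 0.04, 0.21 and 0.10 in the dKO arrays and between -0.06 and 0.05 in the control arrays, so their groups overlapped.

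**Figure D2:**
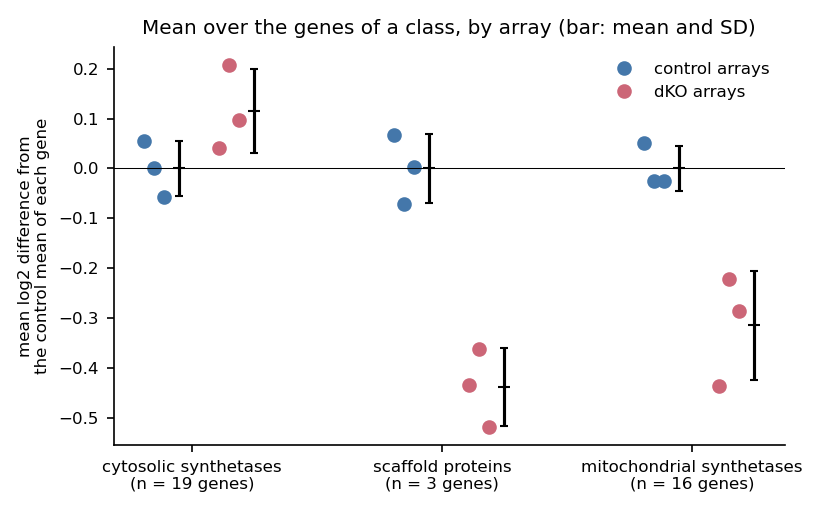
Mean over the genes of a class of the log2 difference from each gene's control mean (y axis), for the 3 control and 3 dKO arrays, with the mean and SD of each group. The mitochondrial dKO arrays, from -0.44 to -0.22, and the scaffold dKO arrays, from -0.52 to -0.36, lie below all control arrays. The cytosolic dKO arrays, from 0.04 to 0.21, overlap with the control arrays.

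Aars, the cytosolic alanyl-tRNA synthetase, was the cytosolic gene that rose. Its control values were 7.34, 7.21 and 7.52 and its dKO values 8.18, 8.79 and 8.37 (log2, probe set 1451083_s_at). Every dKO array was above every control array, which held for 3 of the 19 cytosolic genes and for 15.8% of all genes; groups lay apart in either direction for 30% of genes. The mean went from 7.35 ± 0.16 to 8.44 ± 0.31 (SD, n = 3 arrays per group), a 2.13-fold rise (log2 difference 1.09 ± 0.19 SE, limma adjusted p = 0.0203). The second Aars probe set, 1423685_at, rose too, by 0.93 ± 0.18 (SE, log2, limma adjusted p = 0.0259). The exact two-sided permutation p was 0.1, the smallest that 3 arrays against 3 allow. The call was lost without control replicate 1, control replicate 2 or dKO replicate 3 (adjusted p = 0.0607, 0.0693 and 0.0585).

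**Figure D3:**
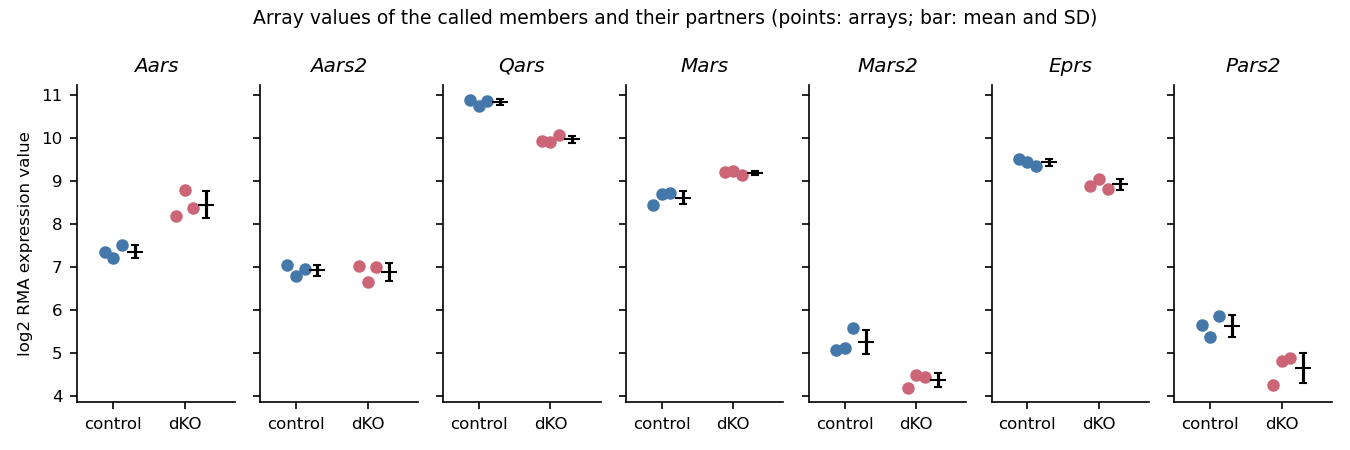
Log2 RMA expression values (y axis) of the 4 called members Aars, Qars, Mars2 and Pars2 and of their partners in the other compartment, Aars2, Mars and Eprs, with 1 point per array and the mean and SD of each group. The groups do not overlap except for Aars2, whose dKO values of 6.64 to 7.01 span most of the control values of 6.78 to 7.04. The called members were picked by a test on these same arrays, and groups lay apart for 30% of all genes.

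The Aars promoter is shown because it holds matches to the letters that Myc and ATF4 are known to bind, in a gene that rose where Myc and Mycn had been deleted. In the window from 250 bases before to 50 after a RefSeq start site (GRCm38.p6), a CACGTG E-box begins 146 bases before the start. A match to TGATGNAA, the core of the amino acid response element bound by ATF4 with C/EBP proteins, lies on the other strand and begins 112 bases before the start. On the gene's strand that match reads TTGCATCA, and a further match, TTTCATCA, begins 10 bases after the start. The stretch of 120 bases with both, chr8:111033682-111033801 on the plus strand, upstream of the start, is printed with the matches in capitals.
Aars: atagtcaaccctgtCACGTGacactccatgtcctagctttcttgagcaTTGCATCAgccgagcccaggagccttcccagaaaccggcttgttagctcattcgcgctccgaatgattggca

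The response element letters were found in other genes of the cytosolic set and in none of the 14 mitochondrial genes with a matched entry. Gars, which is among the genes with the letters, serves both compartments. Promoter entries were matched for 29 of the 38 members: 12 cytosolic, 3 scaffold and 14 mitochondrial genes. Searched on both strands, TGATGNAA was present in 5 of 12 cytosolic, 0 of 3 scaffold and 0 of 14 mitochondrial genes, against 4.51% of the 27025 genes in the table. The E-box CACGTG was present in 4 of 12 cytosolic genes (Aars, Iars, Tars and Farsb), 0 of 3 scaffold genes and 1 of 14 mitochondrial genes (Ears2), against 8.09% of genes. The letters of the 2 motifs did not overlap in any of these promoters. Base composition was not matched between the sets, so these shares are a description. The other 4 genes with the element are shown as 30 bases around it, to set its letters beside those of Aars; they were picked for the match after their values were known.
Gars: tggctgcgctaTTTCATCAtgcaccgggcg
Iars: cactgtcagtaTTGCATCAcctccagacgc
Tars: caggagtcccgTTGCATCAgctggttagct
Yars: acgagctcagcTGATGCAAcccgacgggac
These lie at chr6:55037960-55037989 (plus strand), chr13:49682126-49682155 (plus), chr15:11399655-11399684 (minus) and chr4:129189895-129189924 (plus) and are printed on the gene's strand. Their log2 differences were -0.15 for Gars, -0.28 for Iars, 0.52 for Tars and 0.08 for Yars, none of which passed the test. Of the genes that fell, Qars and Mars2 had neither set of letters in their windows, and Pars2 had no matched entry.

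Qars, the cytosolic glutaminyl-tRNA synthetase and a member of the multisynthetase complex, was the cytosolic gene that fell. Control values were 10.89, 10.75 and 10.85 and dKO values 9.93, 9.90 and 10.06 (log2, probe set 1456726_x_at). The groups lay apart by far more than the spread within them. Averaged over 3 arrays a group, Qars went from 10.83 ± 0.07 (SD) to 9.96 ± 0.08, lower by 1.82-fold (log2 difference -0.87 ± 0.13 SE, limma adjusted p = 0.0117). An x_at probe set can also bind other transcripts, but the 3 other Qars probe sets were lower in every dKO array as well, with log2 differences of -0.64, -0.50 and -0.56 and adjusted p from 0.0617 to 0.111. The last of these, 1456213_x_at, was in the negative control range in both groups and does not measure the gene above background. Of the 4 called members, Qars alone kept its call whichever array was removed, with adjusted p between 0.0358 and 0.0466.

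The other complex members moved little or in both directions. Of the 7 enzymes of the complex listed here, 0 rose and 1 fell (at an unadjusted p of 0.05, 1 was higher and 2 lower), with a median of -0.09; of the 12 cytosolic genes outside it, 1 rose and 0 fell (unadjusted, 3 higher and 0 lower), with a median of 0.09. Eprs, which charges both glutamate and proline tRNAs, had control values of 9.51, 9.43 and 9.36 and dKO values of 8.89, 9.05 and 8.81. The groups did not overlap, yet the difference of -0.52 ± 0.13 (SE, log2) missed the threshold (adjusted p = 0.0676); its other 3 probe sets differed by -0.27, -0.38 and -0.38, the last, 1430370_at, in the negative control range. Mars, the methionyl-tRNA synthetase, listed in the annotation as Mars1, went the other way, from 8.43, 8.69 and 8.72 to 9.20, 9.22 and 9.12. Its difference of 0.57 ± 0.14 also missed the threshold (adjusted p = 0.056), with no overlap. With each array centred on its median, Mars passed (0.63, adjusted p = 0.0391), and after quantile normalization Eprs did (-0.59, adjusted p = 0.0374). The lysyl, leucyl, isoleucyl and arginyl enzymes Kars, Lars, Iars and Rars had overlapping groups and differences from -0.28 to 0.25; the second Iars probe set had the opposite sign, at 0.37.

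None of the 3 scaffold genes passed the test, and all were lower on average. Aimp1, which tethers enzymes in the complex and is also released as a cytokine, went from 9.78, 9.71 and 9.62 to 9.05, 9.41 and 9.28 (difference -0.46 ± 0.15 SE, log2, adjusted p = 0.121). Aimp2, the core scaffold, differed by -0.49 ± 0.19 (adjusted p = 0.191), and Eef1e1, also known as Aimp3, by -0.36 ± 0.23 (adjusted p = 0.435). For Aimp1 and Aimp2 all 3 dKO values were under all 3 control values, a separation in that direction shown by 14.2% of all genes. At an unadjusted p of 0.05, 2 of the 3 were lower by limma.

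Outside the complex, Tars, Hars and Wars had the next largest differences, and none passed. Tars, for threonine, had control values of 8.23, 8.66 and 8.03 and dKO values of 8.74, 9.0 and 8.73. The closest control and dKO arrays were nearly level, and the difference was 0.52 ± 0.19 (SE, log2, adjusted p = 0.175). Hars, for histidine, differed by 0.58 ± 0.22 (adjusted p = 0.18) with overlapping groups. Wars, the tryptophanyl enzyme known as an interferon-gamma induced gene, had control values of 7.59, 6.80 and 7.39 and dKO values of 7.83, 7.56 and 8.10. These overlapped because control replicate 1 lay above dKO replicate 2 (difference 0.57 ± 0.24, adjusted p = 0.232). All 4 Wars probe sets were higher on average in dKO arrays, by 0.39 to 0.57, and their mean passed (0.47, adjusted p = 0.0486). Of 7 measured interferon-gamma response genes in a list of 8, 4 rose in the same arrays (Irf1, Gbp2, Psmb8 and Psmb9) and 0 fell (unadjusted, 5 higher and 0 lower). Beside them, 4.49% of all genes were higher and 3.56% lower by the adjusted test. Any link between these genes and the Wars values was not tested. The remaining cytosolic genes, Cars, Gars, Nars, Sars, Vars, Yars, Farsa and Farsb, differed by -0.15 to 0.28 with adjusted p of 0.626 or more; the phenylalanyl-tRNA synthetase has 2 kinds of subunit, of which Farsa differed by -0.08 and Farsb by 0.06. The 3 other Farsa probe sets were lower, by 0.53 to 0.99, without passing.

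By the fold of the catalytic domain, synthetases form class I and class II, which share no ancestry. The classes did not separate the changes: in the cytosol the median was 0.11 over 9 class I and 0.06 over 9 class II genes, and in mitochondria -0.24 over 9 class I and -0.25 over 7 class II genes. Eprs holds an enzyme of each class and was counted in neither.

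Both mitochondrial genes that fell were measured at low signal. Mars2, the mitochondrial methionyl-tRNA synthetase, had control values of 5.08, 5.13 and 5.58 and dKO values of 4.19, 4.49 and 4.44 (probe set 1436777_at). Its mean fell from 5.26 ± 0.28 to 4.37 ± 0.16 (SD, n = 3 per group), 1.85-fold (log2 difference -0.89 ± 0.18 SE, limma adjusted p = 0.0324). Its second probe set, 1447378_at, averaged no more than the negative controls in either group and differed by -0.34 (adjusted p = 0.494), and the mean of the 2 gave -0.62 (adjusted p = 0.0907). Pars2, the mitochondrial prolyl-tRNA synthetase, had control values of 5.66, 5.36 and 5.86 and dKO values of 4.26, 4.82 and 4.88. Its mean fell from 5.63 ± 0.25 to 4.65 ± 0.35, 1.96-fold (log2 difference -0.97 ± 0.22 SE, limma adjusted p = 0.0437). In each gene the highest dKO array was below the lowest control array, a lower separation shown by 6 of 16 mitochondrial genes and by 14.2% of all genes. Neither call survived the removal of any single array (adjusted p from 0.0569 to 0.103 for Mars2 and from 0.0664 to 0.12 for Pars2). With all 6 arrays, the Pars2 call was also lost under median centring, quantile normalization and array weights (adjusted p = 0.0565, 0.0539 and 0.0529). All values of 1436777_at and of the Pars2 probe set lay above the negative control range but under the lowest array median.

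Further mitochondrial genes were lower in every dKO array without passing. Nars2, for asparagine, went from 7.35, 7.22 and 6.89 to 6.49, 6.67 and 6.58, with groups that did not overlap (difference -0.57 ± 0.16 SE, log2, adjusted p = 0.0862); among probe sets above the median level alone it passed (adjusted p = 0.0457), as did the mean of its 2 probe sets (-0.68, adjusted p = 0.0276). Sars2, for serine, differed by -0.50 ± 0.16 (adjusted p = 0.121), Ears2, for glutamate, by -0.48 ± 0.18 (adjusted p = 0.168) and Fars2, for phenylalanine, by -0.25 ± 0.13 (adjusted p = 0.314). All 4 Ears2 probe sets were lower on average, by 0.30 to 0.75. The Lars2 probe sets, for leucine, gave different sizes: the brightest had overlapping groups (-0.23 ± 0.25, adjusted p = 0.666), while 1435682_at went from 8.44, 8.39 and 8.22 to 7.92, 7.64 and 7.12 (-0.79 ± 0.22, adjusted p = 0.0806). Only Tars2 (0.24 ± 0.14) and Rars2 (0.09 ± 0.16) differed upward, neither past the threshold, and Aars2, the partner of Aars, had control values of 7.04, 6.78 and 6.94 and overlapping dKO values of 7.01, 6.64 and 7.01 (-0.03 ± 0.16). The other 7, Cars2, Hars2, Iars2, Lars2, Vars2, Wars2 and Yars2, differed by -0.30 to -0.14 with adjusted p of 0.344 or more.

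**Figure D4:**
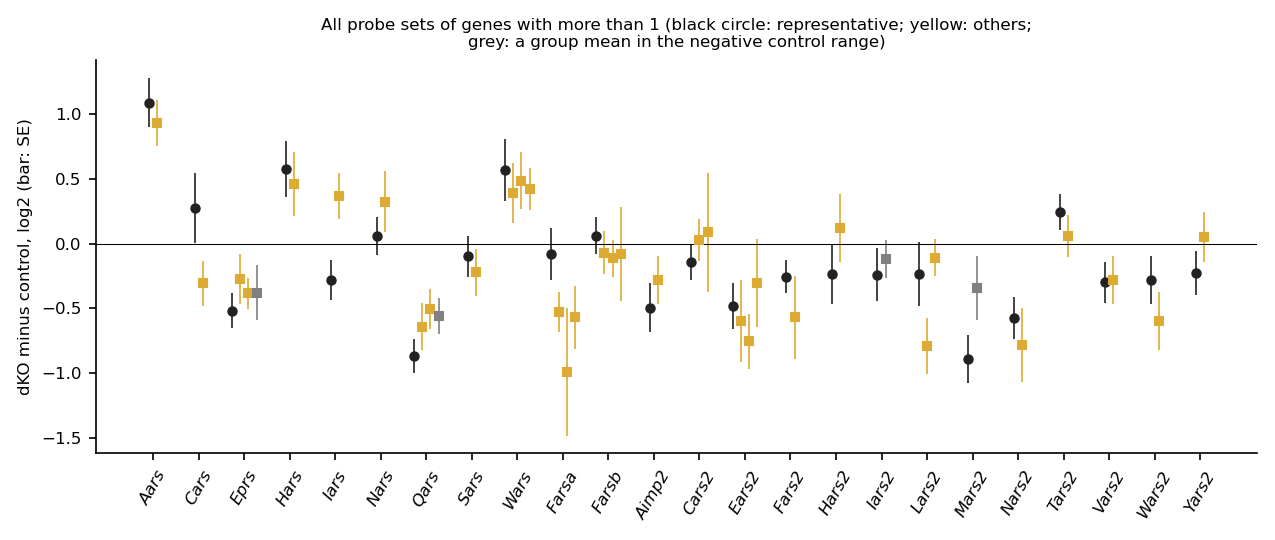
Log2 difference between dKO and control (y axis, bar: SE) of every probe set of the 24 genes with more than 1, with the representative in black, others in yellow and those with a group mean in the negative control range in grey. All probe sets of a gene had the same sign in 18 of the 24 genes; Aars, Qars, Wars and Ears2 are among them, and Cars, Iars, Farsb, Cars2, Hars2 and Yars2 are not.

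Across the 76 probe sets of the members, 2 rose and 3 fell, against 3.57% and 3.41% of all probe sets (6.99% in either direction). Over all probe sets the groups did not overlap for 27.4%. They were the 2 of Aars and 1 each of Qars, Mars2 and Pars2.

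Setting each cytosolic enzyme against the mitochondrial enzyme for the same amino acid used 13 pairs with 1 gene in each compartment. In 12 of the 13 the cytosolic difference was the higher, by a median of 0.41 over all pairs, and only Iars and Iars2 went the other way (-0.04). The contrast was largest for methionine. Mars minus Mars2, each array set against the control mean of that contrast, stood at 0.00, 0.21 and -0.21 in control and at 1.66, 1.39 and 1.33 in dKO arrays, a difference of 1.46 ± 0.16 (SE, log2). The groups were far apart, with opposite directions in the 2 compartments, but Mars alone did not pass (limma adjusted p = 0.056). Mars2 lay under the lowest array median, and its call was lost without any single array. For alanine the difference was 1.12 ± 0.31, carried by Aars, for tryptophan 0.85 ± 0.34, for histidine 0.81 ± 0.18 and for asparagine 0.63 ± 0.08. In these 5 pairs the within-array contrast did not overlap between groups. For single genes, groups lay apart in either direction for 30% of all genes. No such share was computed for contrasts of other gene pairs. The exact two-sided permutation p of each was 0.1, the smallest the design allows, and 0.26 adjusted over the 13 pairs, so no pair could pass. The 12 of 13 rests on the brightest probe sets. The second Cars probe set, 1427330_at, differed by -0.30 where the brightest gave 0.28, which would put Cars below Cars2 (-0.14), and the second Iars probe set, at 0.37, would put Iars above Iars2 (-0.24). The pairs also leave out Gars and Kars, which serve both compartments, Qars (-0.87), Eprs (-0.52), Farsa (-0.08) and Farsb (0.06). Eprs lay below Ears2 (-0.48) but above Pars2 (-0.97), and Farsa and Farsb lay above Fars2 (-0.25).

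**Figure D5:**
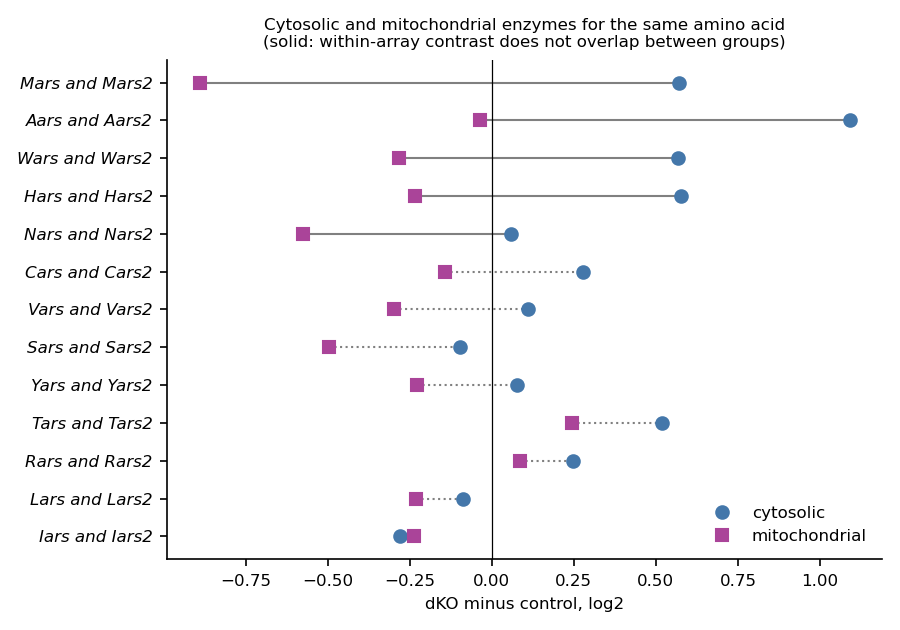
Log2 difference between dKO and control (x axis) for the cytosolic (circle) and mitochondrial (square) enzyme of 13 amino acids, joined by a solid line where the within-array contrast does not overlap between groups and a dotted line otherwise. The circle is to the right of the square in 12 of 13 pairs, farthest for Mars and Mars2.

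Among other genes around tRNA charging, those that passed the threshold were lower. Of 14 measured genes in a list of 18, 0 rose and 3 fell (unadjusted, 1 higher and 3 lower), against 4.49% of all genes higher and 3.56% lower, with a median of -0.12. Gatb, a subunit of the amidotransferase that makes glutaminyl-tRNA in mitochondria and so does there what Qars does in the cytosol, went from 8.16, 8.48 and 8.30 to 7.38, 7.13 and 7.65. It fell by 0.93 ± 0.18 (SE, log2, limma adjusted p = 0.0265), while its partner subunits Qrsl1 and Gatc differed by -0.11 and -0.12 (adjusted p = 0.747 and 0.717). Pstk, the kinase on the way from seryl- to selenocysteinyl-tRNA, fell from 8.24, 8.30 and 8.58 to 6.81, 7.62 and 7.25 (-1.15 ± 0.22, adjusted p = 0.028), and Sepsecs, the next enzyme of that route, differed by -0.34 (adjusted p = 0.387). Dtd1, which removes D-amino acids from tRNA, fell from 9.57, 9.69 and 9.13 to 8.22, 8.05 and 7.90 (-1.40 ± 0.19, adjusted p = 0.00868). In each of the 3 genes, which were named because they passed, all dKO arrays were below all control arrays. Such a separation was shown by 14.2% of all genes. With 1 array left out, 1 or 2 genes of the list fell.

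The wider amino acid response, the genes that ATF4 is known to raise, changed in both directions. Of 25 genes, again beside 4.49% of all genes higher and 3.56% lower, 3 rose (Vldlr by 2.13, Atf5 by 1.49 and Jdp2 by 0.96, log2) and 2 fell (Pck2 by 1.03 and Eif4ebp1 by 0.80), with a median of 0.15. At an unadjusted p of 0.05, 8 were higher and 4 lower. Of the other known targets, Atf3, Nupr1 and Mthfd2 differed by 1.42, 1.09 and 1.11 without passing (adjusted p = 0.0527, 0.0871 and 0.131), and Asns, Ddit3 and Trib3 by -0.23, 0.15 and -0.29. Second probe sets passed for Sesn2, which rose by 1.74 on 1425139_at (adjusted p = 0.00927; 0.66 on the brightest, adjusted p = 0.101), and for Phgdh, which fell by 0.89 on 1454714_x_at (adjusted p = 0.0142; -0.85 on the brightest, adjusted p = 0.058). The brightest Atf4 probe set differed by 0.14 (adjusted p = 0.777), and another, 1448135_at, rose by 0.65 (adjusted p = 0.037). Without control replicate 2 or dKO replicate 1 a single gene rose, and the falls were lost without any 1 array other than control replicate 3.

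Beside these sets, protein genes of the ribosomes found by a symbol search gave other values, with no test between sets. The search covered genes with a probe set annotated to them alone, so the ribosomal sets need not be complete. Of 76 mitochondrial ribosomal protein genes 0 rose and 2 fell (unadjusted, 12 higher and 7 lower), with a median of 0.11 against -0.25 for the mitochondrial synthetases. Of 46 cytosolic ribosomal protein genes 0 rose and 23 fell (unadjusted, 0 higher and 34 lower), with a median of -0.59 against 0.08 for the cytosolic synthetases. Of all 18193 genes, 4.49% were higher and 3.56% lower by the adjusted test (unadjusted, 2232 higher and 1964 lower).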

How the data were processed

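Gene expression was measured on 6 whole-genome mouse arrays. Per the labels' protocols, RNA was extracted with Trizol, amplified in 2 rounds with the NuGEN Pico kit and biotin-labelled. The deposited values are log2 expression values made by RMA, per the submitters' processing notes; no version or settings were stated there, and the log2 scale was read from the range of 1.49 to 13.85. Centring was the authors' and is known only from the array medians. Amplification and RMA can compress differences, and scaling hides a change in total RNA.

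Of 45037 non-control probe sets, 34945 had 1 gene symbol in the platform annotation; the others were tested but not named. All 38 members matched the RefSeq gene table (GRCm38.p6) by Entrez identifier. Promoter sequences are from RefSeq (GRCm38.p6). The test was limma (3.58.1, R 4.3.3), dKO minus control, 4 residual and 3.19 prior degrees of freedom, Benjamini-Hochberg adjustment, threshold 0.05; the script was tested on simulated data. Adjusted p-values are limma's, and those given for a count or a call are over all probe sets, or over all 18193 genes where probe sets of a gene were averaged. The number of arrays limits the precision.

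The members and lists were chosen with earlier results of these data known. Values per array are given for members past the threshold on any probe set, those with a log2 difference of at least 0.5 and no overlap, and the partners of called members; in the other lists, genes past the threshold are named. The values per array of Wars, Aimp1, a Lars2 probe set and the other charging genes, the genes of other lists named without passing, the ribosomal sets and the pairs were added after values were seen. Alternatives were scaling, a level filter, the prior, array weights, the replicate block, averaged probe sets and leaving out each array.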

Additional observations from a re-analysis of the deposited data

How the results depend on the processing

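The cytosolic median stayed between 0.03 and 0.14 and the mitochondrial median between -0.33 and -0.18 under all alternatives run, and 0 mitochondrial and 0 scaffold genes rose and 0 scaffold genes fell under any of them. The number of cytosolic genes that rose was 2 with arrays centred on their median, with the level filter and with a trended robust prior (Aars and Mars), 3 with probe sets averaged (Aars, Mars and Wars) and 0 with the replicate block. The number that fell was 2 after quantile normalization, with the level filter and with the trended prior (Qars and Eprs). The number of mitochondrial genes that fell was 1 with centred arrays, quantile normalization or array weights (Mars2), 1 with the level filter, which leaves out Mars2 and Pars2 (Nars2), and 0 with the replicate block, under which Mars2 and Pars2 had adjusted p of 0.0602 and 0.0772. With the block, 814 probe sets rose and 716 fell over the array, 1 of the other tRNA charging genes fell and 1 amino acid response gene fell; the latter number was 4 with the level filter, with array weights and with averaged probe sets. Same-numbered arrays did not deviate together (r from -0.02 to 0.01). With 3 arrays a group, this would miss a pairing of small effect, so whether the numbers pair the samples is not settled. Apart from the level filter, which tests fewer probe sets, the cause was not tested.

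With 1 array left out, 708 to 893 probe sets rose and 630 to 812 fell over the array, against 1608 and 1538. In those settings 0 to 1 cytosolic genes rose, 1 fell in each, and 0 mitochondrial genes fell; 1 to 2 other charging genes fell, and 1 to 4 amino acid response genes rose and 0 to 2 fell. Aars2 turned from -0.03 to 0.027 with centred arrays and 0.019 after quantile normalization, and ranged from -0.11 to 0.087 with 1 array left out, above 0 without control replicate 1 or dKO replicate 2. The Mycn probe set 1425923_at ranged from -0.19 to 0.076, above 0 without dKO replicate 3. With the E-box widened to CANNTG, 10 of 12 cytosolic and 11 of 14 mitochondrial genes held it, against 75% of genes. Mars2 and Pars2, under the lowest array median, are limited by signal over background.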
